A study of Mus musculus with 6 samples.

Results

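This account covers 10 mouse genes that encode histone chaperones tied to DNA replication or of general use, which are Chaf1a, Chaf1b, Rbbp4, Nasp, Hat1, Supt16, Ssrp1, Nap1l1, Nap1l4 and Anp32e. Members were taken by name, as probe sets whose annotation gives 1 gene symbol that is a member or an older or newer synonym. For 9 of the 10 genes there was 1 probe set each, and all 9 passed the filter on low values, out of 35557 probe sets on the array and 25142 that passed the filter. Ssrp1 was not analysed here. Expression came from Affymetrix Mouse Gene 1.0 ST arrays hybridised with total RNA of undifferentiated mouse embryonic stem (ES) cells. The 3 Hira-null arrays are from the line Cl34, labelled Hira-/-, and the 3 WT arrays are from its parental line w9.5. Both lines were grown in the same serum medium with ESGRO and without any treatment. The design text says that cells were harvested at several degrees of confluence, which the labels do not assign to arrays. The series holds 1 Hira-null line, so effects of Hira loss and other differences between the lines cannot be told apart. The labels call the replicates biological and say no more of their source, so a p-value here reflects only how far these arrays scatter, part of which may be technical.

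Histone chaperones hold free histones, carry them into the nucleus and hand them to DNA or take them off it. During DNA replication the chromatin assembly factor CAF-1, made of the proteins encoded by Chaf1a, Chaf1b and Rbbp4, places new H3-H4 behind the fork, after NASP has sheltered the soluble histones and HAT1 has acetylated new H4. FACT, the pair encoded by Supt16 and Ssrp1, and the NAP1 family, here Nap1l1 and Nap1l4, handle mainly H2A-H2B, and ANP32E removes the variant H2A.Z from nucleosomes. HIRA deposits the variant H3.3 outside replication, and the comparison sets the RNA levels of the genes of the other routes in the line labelled Hira-/- against the parental line.

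None of the 9 measured genes differed between the lines beyond the spread of the arrays. Hira-null replicate 3 gave the lowest of the 3 Hira-null values for 8 of the 9 members, and for 38.3% of all probe sets. For Hat1, Rbbp4, Supt16, Nap1l1 and Nap1l4 it differed from the mean of the other Hira-null arrays by only -0.24 to -0.17 log2 units. For Chaf1a, Nasp and Anp32e, picked after their values were seen, it lay 0.91 to 0.95 log2 units below that mean. Chaf1b had no such step. The stretches of 250 bases before the start sites of Chaf1a, Nasp, Anp32e and Chaf1b are shown. The first 3 had the large step in that 1 array, and the fourth, a partner of Chaf1a in CAF-1, did not. Sequences are from RefSeq, build GRCm38.p6, written 5′ to 3′ along the gene, and capitals mark CCAAT on either strand, a common promoter element bound by the factor NF-Y.

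Chaf1a, chr17:56040166-56040415, strand plus: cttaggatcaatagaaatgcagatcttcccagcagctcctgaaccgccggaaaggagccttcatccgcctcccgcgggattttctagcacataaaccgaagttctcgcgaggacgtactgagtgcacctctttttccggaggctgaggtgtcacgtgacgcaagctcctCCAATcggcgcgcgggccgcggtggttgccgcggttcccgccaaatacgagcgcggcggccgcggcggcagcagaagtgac
Nasp, chr4:116627952-116628201, strand minus: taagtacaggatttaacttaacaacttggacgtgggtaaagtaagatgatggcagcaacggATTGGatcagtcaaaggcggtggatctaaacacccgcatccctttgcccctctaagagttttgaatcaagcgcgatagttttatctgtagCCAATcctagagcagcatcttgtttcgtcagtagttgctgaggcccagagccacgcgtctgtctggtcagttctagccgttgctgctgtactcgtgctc
Anp32e, chr3:95929007-95929256, strand plus: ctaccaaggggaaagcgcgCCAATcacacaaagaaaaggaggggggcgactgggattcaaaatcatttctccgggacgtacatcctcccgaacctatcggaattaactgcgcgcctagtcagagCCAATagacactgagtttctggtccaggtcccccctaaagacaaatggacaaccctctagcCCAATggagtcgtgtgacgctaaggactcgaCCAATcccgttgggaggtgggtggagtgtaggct
Chaf1b, chr16:93883651-93883900, strand plus: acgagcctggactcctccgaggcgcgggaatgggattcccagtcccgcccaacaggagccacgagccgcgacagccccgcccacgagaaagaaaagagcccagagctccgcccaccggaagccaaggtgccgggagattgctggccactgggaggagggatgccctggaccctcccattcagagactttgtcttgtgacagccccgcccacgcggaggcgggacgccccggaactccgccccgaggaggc

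CCAAT or its reverse complement ATTGG occurred once before Chaf1a, 2 times before Nasp, 4 times before Anp32e and 0 times before Chaf1b. Of the 8 measured members with a promoter window, 6 held it, Supt16 being the other without it, against 33.8% of all 32851 windows of this length. Hat1, Rbbp4 and Nap1l1 also held it. Their differences of Hira-null replicate 3 from the mean of the other Hira-null arrays were only -0.22, -0.24 and -0.18. Whether the element has a part in the steps of that array was not tested. For the E2F motif only the letters TTTCCCGC, TTTCGCGC, TTTGCCGC and TTTGGCGC were searched, on both strands. These exact letters were in 0 of the 8 and in 1.86% of all windows. Other forms of the E2F motif were not searched. The count therefore does not show that these windows, that of Chaf1a included, lack E2F sites. TTTGAA, the core of the cell cycle element called CHR, was in 2 of the 8, those of Nasp and Anp32e, and in 16% of all windows. TATAAA was in 0 of the 8 and in 12.4% of all windows. The base composition differed among the 4 shown, with 61.2% G and C before Chaf1a, 48.4% before Nasp, 54.0% before Anp32e and 68.4% before Chaf1b, and a median of 52.4% over all windows. The 10 member windows, those of Ssrp1 included, had medians of 64.0% G and C and 25 CG dinucleotides, against 52.4% and 6 over all windows. Motif shares among windows of like composition were not computed. A match describes the letters only, and a motif that is not found says nothing of the factor.

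All values below are deposited log2 expression values or differences of them, Hira-null minus WT, with the standard error (SE) from limma or the SD over 3 arrays. Array medians lay between 4.93 and 5.02, and the levels of different probe sets are not set against each other. On principal component 1, which held 41.7% of the variance, Hira-null replicate 3 stood at 65.6 and the other arrays at -32.0 to 1.95, so the members' differences are also given without that array, as are those of other chaperone, histone and replication genes that it moves by much. The Hira probe set read 7.40, 7.05 and 6.81 in the Hira-null arrays, against 7.49, 7.86 and 7.83 in the WT arrays. Where in the gene the deletion lies is not in the labels, so this probe set may read an undeleted part. The ES cell markers fitted the label, with 10 of 10 above the filter and Pou5f1 at 11.35 to 11.58 in Hira-null and 10.91 to 11.45 in WT arrays. Summed on the linear scale, these 10 ranged from 14840 to 19750 in Hira-null and from 16380 to 17210 in WT arrays. Markers of other cells were above the filter for 8 of 9 fibroblast or feeder genes (all but Postn), 7 of 8 endoderm genes (all but Afp) and 5 of 6 trophectoderm genes (all but Elf5). Their summed linear values overlapped between the lines, at 2235 to 3435 in Hira-null and 2438 to 4422 in WT arrays for fibroblast genes. For endoderm genes they were 838.8 to 1408 in Hira-null and 1224 to 1944 in WT arrays, and for trophectoderm genes 440.6 to 1454 in Hira-null and 514.8 to 976.4 in WT arrays. All 5 mesoderm genes analysed (T was not) had sums of 146.8 to 167.7 in Hira-null and 125.4 to 162.9 in WT arrays, and all 5 neuroectoderm genes had 273.4 to 469.8 in Hira-null and 411.7 to 503.2 in WT arrays. Gene by gene, 6 of 7 endoderm genes were lower in Hira-null arrays, with a median difference of -0.37. The lines did not overlap for 3 of the 7, among them the cubilin gene Cubn at -1.48. Of fibroblast or feeder genes, 5 of 8 were lower (median -0.40). The lines did not overlap for 4 of the 8, and Thy1, among these, was higher in Hira-null arrays, at 0.76. Over all genes tested, 2638 of 15199 did not overlap. Of neuroectoderm genes, 4 of 5 were lower (median -0.61, with Pax6 at -1.21). The medians were -0.05 for trophectoderm and 0.03 for mesoderm genes, and none of these markers passed the limma test, with 8 at an unadjusted p under 0.05. What part they have in the values below was not tested.

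In the fit over all probe sets, 0 of the 9 members were called (limma, adjusted p from 0.672 to 0.960), where 0.00398% of all probe sets, a single one, was called. At an unadjusted p under 0.05 there were 0 of 9 members and 10.1% of all probe sets. The 3 arrays of a line stood apart from the 3 of the other for 0 of 9 members, against 15.3% of all probe sets. The differences ran from -0.21 to 0.13, with 4 above zero (50.4% of all probe sets were) and 5 below (49.6%), and their median was -0.09, against 0.003 over all probe sets. No member lies on chromosome 8 or 11, whose genes had median differences of -0.27 and -0.24 in these arrays, against 0.02 for genes of the other chromosomes.

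**Figure D1:**
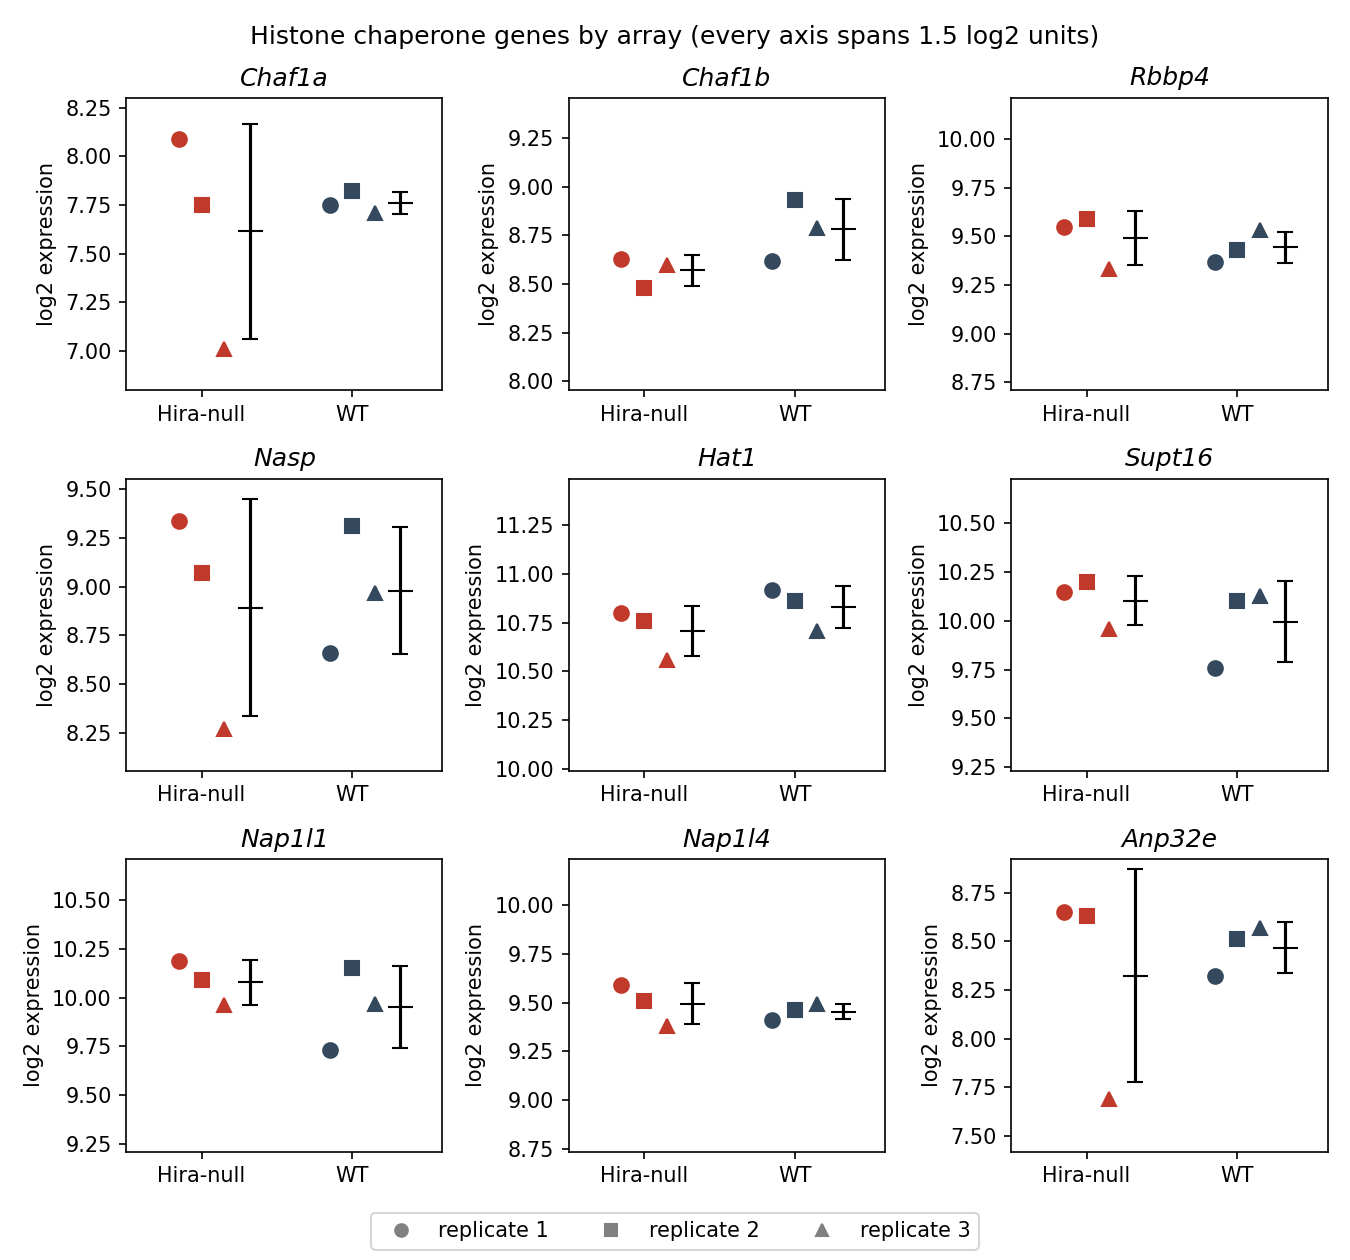
Log2 expression of the 9 measured chaperone genes, 1 panel per gene, with Hira-null arrays (red) left of WT arrays (dark blue), a symbol for each replicate and a bar for the mean ± SD of 3 arrays. The lines overlap in all 9 panels, and Hira-null replicate 3 lies far below the other Hira-null arrays for Chaf1a (7.01), Nasp (8.27) and Anp32e (7.69).

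The values of the CAF-1 subunit genes follow, and their patterns were not tested against each other. Chaf1a, which encodes the large subunit that contacts the replication clamp, read 8.09, 7.75 and 7.01 in Hira-null arrays, against 7.75, 7.82 and 7.71 in WT arrays. Hira-null replicate 1 was the highest and Hira-null replicate 3 the lowest of the 6, and the WT arrays lay close together between them. The means were 7.62 ± 0.55 in Hira-null and 7.76 ± 0.06 in WT arrays (SD, n = 3 each), a log2 difference of -0.14 (SE 0.27, 95% interval -0.77 to 0.49, limma adjusted p = 0.919). Without Hira-null replicate 3 the sign turned and the difference was 0.16.

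Chaf1b, which encodes the middle subunit, read 8.63, 8.48 and 8.60 in Hira-null arrays, against 8.62, 8.93 and 8.79 in WT arrays. Its Hira-null arrays were low and close to each other, and only WT replicate 1 lay as low, 0.01 below the highest Hira-null array. The means were 8.57 ± 0.08 in Hira-null and 8.78 ± 0.16 in WT arrays (SD, n = 3 each). The difference of -0.21, or 1.16-fold lower, was the one with the smallest unadjusted p among the members, and it did not pass the test (SE 0.13, 95% interval -0.53 to 0.11, limma adjusted p = 0.672). It stayed below zero without Hira-null replicate 3 (-0.23) and without both that array and WT replicate 1 (-0.305).

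Rbbp4 encodes the small subunit, a histone-binding WD-repeat protein shared with other chromatin complexes. It read 9.55, 9.59 and 9.33 in Hira-null arrays, against 9.37, 9.43 and 9.53 in WT arrays. The lowest and the highest of the 6 values were both from Hira-null arrays, so the lines overlapped fully. The log2 difference was 0.05 (SE 0.13, 95% interval -0.26 to 0.35, limma adjusted p = 0.949), and 0.13 without Hira-null replicate 3.

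Nasp, the gene of the H3-H4 storage chaperone, varied in both lines. It read 9.34, 9.07 and 8.27 in Hira-null arrays, against 8.66, 9.31 and 8.97 in WT arrays. Replicate 3 was the low array among the Hira-null ones and replicate 1 among the WT ones. The means were 8.89 ± 0.56 in Hira-null and 8.98 ± 0.33 in WT arrays (SD, n = 3 each), a difference of -0.09 with the widest interval of the 9 members (SE 0.30, 95% interval -0.80 to 0.63, limma adjusted p = 0.960). Without Hira-null replicate 3 it was 0.23, and without both low arrays 0.07.

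Hat1, which encodes the acetyltransferase that marks new H4, read 10.80, 10.76 and 10.56 in Hira-null arrays, against 10.92, 10.86 and 10.71 in WT arrays. The 2 highest of the 6 values were from WT arrays and the lowest from a Hira-null array, and the third WT array lay within the Hira-null range. The difference was -0.12 (SE 0.13, 95% interval -0.43 to 0.19, limma adjusted p = 0.842), and it was -0.05 without Hira-null replicate 3.

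The chaperones that mainly handle H2A-H2B had small positive differences. Supt16, the gene of the large FACT subunit, read 10.15, 10.20 and 9.96 in Hira-null arrays, against 9.76, 10.10 and 10.13 in WT arrays. WT replicate 1 gave the lowest value, and the other 5 values ran from 9.96 to 10.20. The difference of 0.11 (SE 0.15, 95% interval -0.25 to 0.47, limma adjusted p = 0.891) was -0.01 without WT replicate 1 and 0.18 without Hira-null replicate 3.

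Nap1l1, a nucleosome assembly protein gene active in dividing cells, read 10.19, 10.09 and 9.96 in Hira-null arrays, against 9.73, 10.15 and 9.97 in WT arrays. Again WT replicate 1 was the lowest, and the difference of 0.13 (SE 0.15, 95% interval -0.23 to 0.49, limma adjusted p = 0.863), the highest of the 9, was 0.02 without it and 0.19 without Hira-null replicate 3. Nap1l4, its paralog, read 9.59, 9.51 and 9.38 in Hira-null arrays, against 9.41, 9.46 and 9.49 in WT arrays. It had the narrowest interval, from -0.24 to 0.32 around a difference of 0.04 (SE 0.12, limma adjusted p = 0.952), and the Hira-null arrays held both the highest and the lowest value. Its difference was 0.10 without Hira-null replicate 3 and 0.02 without WT replicate 1.

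Anp32e, the gene of the H2A.Z chaperone, read 8.65, 8.63 and 7.69 in Hira-null arrays, against 8.32, 8.51 and 8.57 in WT arrays. The first 2 Hira-null arrays were the highest of the 6 and the third was far below all others. The means were 8.32 ± 0.55 in Hira-null and 8.47 ± 0.13 in WT arrays (SD, n = 3 each), a difference of -0.14 (SE 0.27, 95% interval -0.78 to 0.49, limma adjusted p = 0.920). Without Hira-null replicate 3 it was 0.17, with the sign turned.

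**Figure D2:**
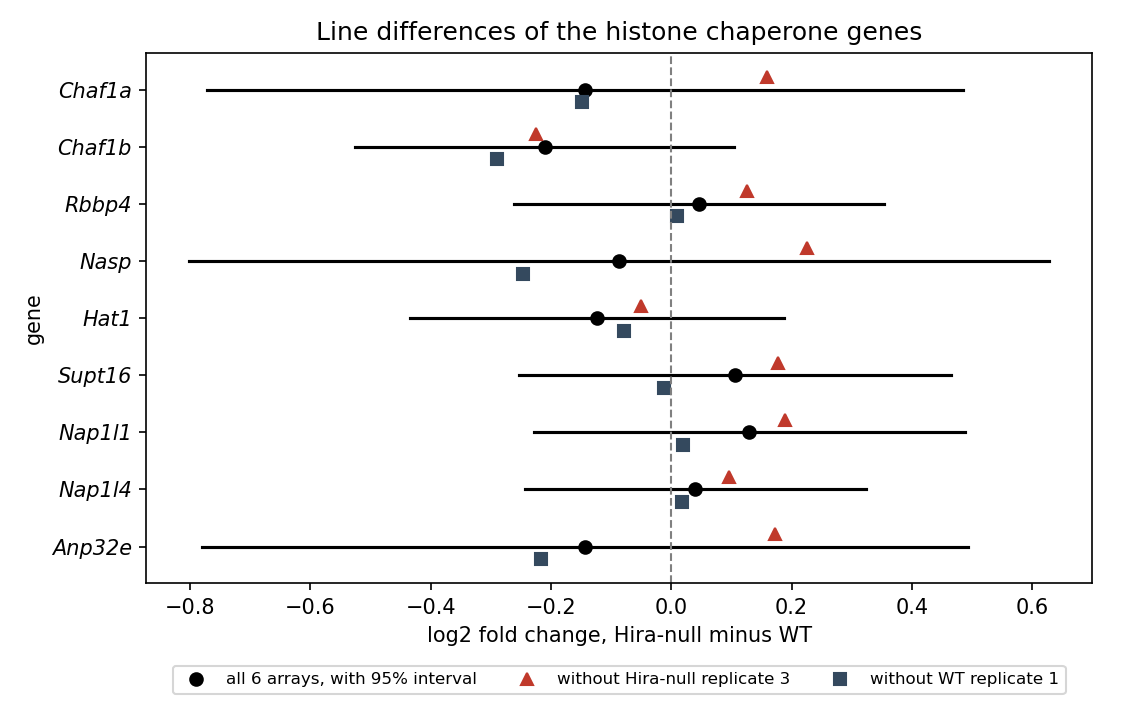
Log2 fold change, Hira-null minus WT, for each measured gene (rows), with all 6 arrays (black points, bars for the 95% limma interval), without Hira-null replicate 3 (red triangles) and without WT replicate 1 (blue squares). Every interval includes 0, and without Hira-null replicate 3 the point lies above 0 for all genes except Chaf1b (-0.23) and Hat1 (-0.05).

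The intervals set what these arrays can show. For Chaf1b, Rbbp4, Hat1, Supt16, Nap1l1 and Nap1l4 they lie between -0.53 and 0.49, whereas for Chaf1a, Nasp and Anp32e they reach -0.80 and 0.63. The 3 genes with the wider intervals had the wider range over the Hira-null arrays, at 1.08 for Chaf1a, 1.07 for Nasp and 0.96 for Anp32e, against 0.15 to 0.26 for the other 6 genes. A median probe set had a range of 0.42 over these arrays, and 90.8%, 90.6% and 87.8% of probe sets had a smaller range than Chaf1a, Nasp and Anp32e. Over the WT arrays the range was 0.11 for Chaf1a, 0.65 for Nasp and 0.25 for Anp32e, with a median probe set at 0.33.

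Hira-null replicate 3 was the lowest Hira-null array for 8 of 9 members, all but Chaf1b, and for 38.3% of all probe sets. Its difference from the mean of the other Hira-null arrays was -0.91 for Chaf1a, -0.94 for Nasp and -0.95 for Anp32e, a step exceeded downwards by 3.70%, 3.44% and 3.29% of probe sets. For Chaf1b the same step was 0.045, and for the other 5 members it was -0.24 to -0.17. These are descriptions of 1 array, and no test bears on them. Among the WT arrays, replicate 1 was the lowest for 7 of 9 members and for 36.05% of all probe sets, which was not tested either. In bulk samples, fewer cells in a given phase or state and less RNA per cell cannot be told apart. Hira-null replicate 3 also had the lowest array weight, 0.3615, against 0.7185 to 2.206 for the other arrays. Its correlations with the other Hira-null arrays were 0.9743 and 0.9755, against 0.9852 between those. What part of its steps is technical was not tested.

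S-phase genes were also low in that array. Of 32 analysed genes of replication licensing, polymerases, nucleotide supply and cyclins E and A, 29 had their lowest Hira-null value in replicate 3, against 5731 of all 15199 genes tested. The median step of that array from the other Hira-null arrays was -0.52 for S-phase genes and 0.005 for all genes. Per array, the median deviation of the S-phase genes from their own means was 0.09, 0.05 and -0.45 in Hira-null arrays and -0.03, 0.13 and 0.17 in WT arrays. The part of this shift in the values of Chaf1a, Nasp and Anp32e was not tested. Markers of other cell types stepped in that array too, with median steps of 0.45 for fibroblast or feeder, 0.40 for endoderm, 0.41 for trophectoderm, -0.06 for mesoderm and -0.48 for neuroectoderm genes, and -0.29 for ES cell markers. The steps farthest from zero were those of the actin gene Acta2 (2.94), the simple epithelial keratin gene Krt8 (2.31) and the neuronal tubulin gene Tubb3 (-1.75), named after their values were seen, while Eomes, in the same list as Krt8, had -0.86. The part of these markers in the values of the members was not tested.

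**Figure D3:**
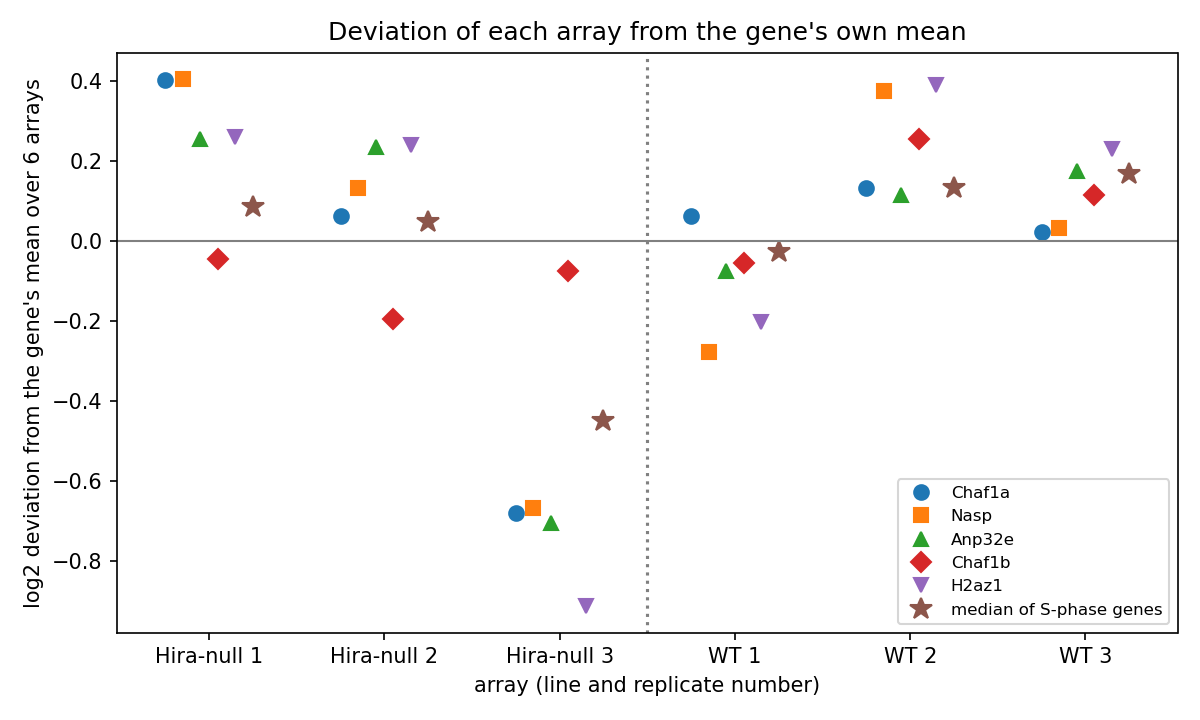
Deviation of each array (x axis, Hira-null arrays left of WT arrays) from the gene's own mean over 6 arrays, in log2 units, for 4 chaperone genes, for H2az1 and for the median of 32 S-phase genes. In Hira-null replicate 3 the values are -0.68 for Chaf1a, -0.67 for Nasp, -0.70 for Anp32e and -0.45 for the S-phase median, while Chaf1b is at -0.07.

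Between the lines, 0 of 32 S-phase genes passed the test (limma, with 2 at an unadjusted p under 0.05, Cdt1 and Gins4), with 5 at higher and 27 at lower values in Hira-null arrays and a median difference of -0.20, where 7817 of 15199 genes were lower and the median was -0.01. Without Hira-null replicate 3, 16 of the 32 were lower and the median was -0.003. The 4 with the smallest unadjusted p did not pass (limma). They were the licensing factor genes Cdc6 (-0.78) and Cdt1 (-0.59), the replisome gene Gins4 (-0.57) and the DNA polymerase gene Pola1 (0.50). Without Hira-null replicate 3 the difference was -0.40 for Cdc6 and 0.63 for Pola1, and without WT replicate 1 it was 0.31 for Pola1. Cdc6 lies on chromosome 11, and Cdt1 and Gins4 lie on chromosome 8. With the 6 genes of these chromosomes left out the list median was -0.17.

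The H2A.Z genes, whose product ANP32E binds, differed from each other in pattern. H2az1 read 11.27, 11.25 and 10.10 in Hira-null arrays, against 10.81, 11.40 and 11.24 in WT arrays, and a further H2az1 probe set read 10.74, 10.71 and 9.5 in Hira-null arrays, against 10.24, 10.90 and 10.73 in WT arrays. Both probe sets were low in Hira-null replicate 3, as Anp32e was, and near-identical copies of this gene were not separated. The differences were -0.28 and -0.31 (limma adjusted p = 0.870 and 0.864), and without Hira-null replicate 3 the sign turned in both, at 0.11 and 0.10. H2az2, on chromosome 11, read 9.57, 9.38 and 9.34 in Hira-null arrays, against 9.89, 9.72 and 9.72 in WT arrays. Its lines did not overlap, but the difference of -0.35 did not pass (SE 0.13, limma adjusted p = 0.429). The macroH2A genes Macroh2a1 (-0.48) and Macroh2a2 (0.31) did not pass either. Macroh2a1 read 9.76 in WT replicate 1, with 8.55 and 8.64 in the other WT arrays, and without that array its difference was -0.10 and that of Macroh2a2 0.50. Among replacement histone genes 4 of 7 were analysed, as H3f3a was below the filter and H3f3b and H1f0 were not analysed here. Of the 4, 3 had lower values, the median was -0.31 (-0.10 without Hira-null replicate 3), and 0 passed in limma, with 1, H2az2, at an unadjusted p under 0.05.

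Partners of replication-coupled H3-H4 assembly had 6 of 12 genes at higher and 6 at lower values, a median of -0.005 (-0.01 without Hira-null replicate 3) and 0 genes past the limma test (1, Asf1b, at an unadjusted p under 0.05). Asf1b, the ASF1 paralog of dividing cells that hands H3-H4 to CAF-1, had the largest difference among them. It read 8.52, 8.52 and 7.75 in Hira-null arrays, against 8.76, 9.02 and 8.97 in WT arrays, without overlap, and the difference of -0.65 did not pass (SE 0.23, limma adjusted p = 0.410). Asf1b lies on chromosome 8, and without Hira-null replicate 3 the difference was -0.40. Asf1a, the paralog that also serves HIRA, had the opposite sign at 0.28 (SE 0.19, limma adjusted p = 0.702). Its difference was 0.12 without WT replicate 1 and 0.42 without Hira-null replicate 3. The histone-reading pair Tonsl and Mms22l, which act at damaged forks, stood at -0.18 and 0.26. Pcna, the clamp that CAF-1 binds, was named after its values were seen. It read 10.79, 10.61 and 9.67 in Hira-null arrays, against 10.44, 10.98 and 10.76 in WT arrays, a difference of -0.37 (limma adjusted p = 0.770), or -0.03 without Hira-null replicate 3.

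Of the H3.3 and CENP-A chaperones, 7 of 8 were analysed (Hjurp was not) and 0 passed in limma. Higher values in Hira-null arrays were seen for 7382 of all 15199 genes tested, and for 6 of these 7. Hira was the exception and the 1 gene at an unadjusted p under 0.05, at -0.64 (SE 0.19, limma adjusted p = 0.352). The Hira difference was -0.50 without Hira-null replicate 3. The HIRA partners Ubn1, Ubn2 and Cabin1 stood at 0.36, 0.26 and 0.03, and Ubn1 at 0.13 without Hira-null replicate 3. Atrx and Daxx, which deposit H3.3 at heterochromatin, stood at 0.19 and 0.10, and Dek, a further H3.3 chaperone gene, at 0.03. Without WT replicate 1 the signs of Cabin1, Daxx and Dek turned, to -0.01, -0.07 and -0.09, and without Hira-null replicate 3 these 3 were at 0.11, 0.22 and 0.16. The list median was 0.10, and 0.16 without Hira-null replicate 3. It was -0.007 without WT replicate 1 and -0.037 without Hira-null replicate 1. The other H2A-H2B, H2A.Z and transcription-linked chaperones had 7 of 13 analysed genes higher and 6 lower, a median of 0.01 (0.10 without Hira-null replicate 3) and 0 past the limma test, with 0 at an unadjusted p under 0.05. Npm1, the nucleolar chaperone gene on chromosome 11, read 11.13, 11.13 and 11.12 in Hira-null arrays, against 11.28, 11.29 and 11.29 in WT arrays, without overlap, at a difference of -0.16 (SE 0.11, limma adjusted p = 0.700). The NAP1 relative Nap1l5 stood at 0.23, the elongation factor gene Supt5 at -0.17 and the H2A-H2B importin gene Ipo9 at 0.16. Nap1l5 was at 0.12 without Hira-null replicate 3, and without WT replicate 1 Ipo9 was at 0.04. Nap1l2, Nap1l3 and Npm2, 3 further genes of these families, were below the filter, and Npm3 was not analysed here.

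Rbbp4 also serves the NuRD, Sin3, Polycomb repressive complex 2 (PRC2) and DREAM complexes, whose other subunits had 11 of 21 genes higher and 10 lower, a median of 0.01 (0.11 without Hira-null replicate 3) and 0 past the limma test (2 at an unadjusted p under 0.05). Those 2, the PRC2 genes Suz12 and Eed, had opposite signs. Suz12, on chromosome 11, read 9.49, 9.16 and 9.06 in Hira-null arrays, against 10.07, 10.03 and 9.68 in WT arrays, a difference of -0.69 (SE 0.17, limma adjusted p = 0.275). Eed read 9.33, 9.14 and 9.24 in Hira-null arrays, against 8.14, 8.96 and 8.78 in WT arrays, a difference of 0.61 (SE 0.22, limma adjusted p = 0.414), or 0.37 without WT replicate 1. In both the lines did not overlap and the test was not passed. The deacetylase gene Hdac2 (0.26) and the Sin3 subunit gene Sap30 (-0.42, on chromosome 8, and -0.21 without Hira-null replicate 3) followed by unadjusted p.

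The pattern of Chaf1b, the member with the smallest unadjusted p, was closest to those of Gatad2a, Sdhaf3 and Malsu1 among 14065 protein-coding genes. The measure was the root mean square difference of the per-array log2 deviations over the 6 arrays, which was 0.04, 0.04 and 0.05. Gatad2a, a NuRD subunit gene on chromosome 8, read 9.15, 9.06 and 9.08 in Hira-null arrays, against 9.16, 9.48 and 9.39 in WT arrays. Sdhaf3 and Malsu1, both on chromosome 6, had differences of -0.24 and -0.14, against -0.21 for Chaf1b.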

How the data were processed

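Log2 expression values were deposited by the authors for 6 arrays and 35557 probe sets; the submitters' processing notes name GCRMA, without a version, and values of 1.14 to 14.03 show the log2 scale. Such normalization equalises arrays and hides a shift common to most genes. The authors' genome build is not given in the sources used here. Probe sets were named by the platform's table (21789 with 1 symbol, 1621 with several, 12147 unnamed here), and symbols were updated through Entrez identifiers with RefSeq genes of GRCm38.p6 (21698 matched). Probe sets were tested if at least 3 arrays exceeded 3.78, the 30th percentile of all values.

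Hira-null minus WT was fitted over all 25142 kept probe sets with limma 3.58.1 (lmFit, eBayes, two-sided, no covariates) in R 4.3.3, with Benjamini-Hochberg adjustment and a threshold of 0.05; the median SE was 0.17, and the number of arrays limits the precision. The fit was run on simulated data with independent noise, and with either no added difference or ones larger than any member's. That run therefore says nothing of differences as small as those of the members. A gene with several probe sets is represented by the one with the highest mean. Members and lists were chosen with earlier results of these data known. Named are all members, every analysed gene of lists of up to 8 genes, otherwise the 4 with the smallest unadjusted p, and the 3 genes most like the member with the smallest p. Motifs were counted by exact match. Scanner signals were not analysed here. Replicates of a line shared at most 1.86% of exact values. Alternatives were other filters, normalizations, variance models, array weights, a block and left-out arrays.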

Additional observations from a re-analysis of the deposited data

How the results depend on the processing

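No member passed the test under any of the 15 alternatives run. The number of probe sets called over the whole array, 1 with all arrays, was 2 with the stricter filter (50th percentile, 4.99), 2 with median centring, 5 with arrayWeights, 0 with the replicate block, 0 without the pair of WT replicate 1 and Hira-null replicate 3, and from 0 to 41 when 1 array was left out, the 41 without Hira-null replicate 2. The labels do not say whether equal replicate numbers pair the arrays. Correlations of deviations from the line means were -0.34, 0.17 and -0.10 for same-numbered arrays and -0.41 to 0.44 for the others. With 3 arrays per line these cannot settle a pairing. The block changed no member's call.

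The sign of the difference turned for Chaf1a with arrayWeights (0.013), without Hira-null replicate 3 (0.16) and without both arrays (0.155). For Nasp it turned with arrayWeights (0.035), without WT replicate 2 (0.078), without Hira-null replicate 3 (0.225) and without both (0.065), and for Anp32e with arrayWeights (0.007), without Hira-null replicate 3 (0.173) and without both (0.10). With 1 array left out, values ran from -0.012 (WT replicate 1) to 0.178 for Supt16, from -0.008 (Hira-null replicate 1) to 0.097 for Nap1l4, from -0.003 (Hira-null replicate 2) to 0.127 for Rbbp4, from -0.38 to 0.16 for Chaf1a, from -0.31 to 0.225 for Nasp and from -0.307 to 0.173 for Anp32e. Chaf1b (-0.305 to -0.135), Hat1 (-0.183 to -0.005) and Nap1l1 (0.02 to 0.23) kept their sign in all 15. The members' median was 0.035 with arrayWeights, 0.075 without both arrays and -0.17 to 0.16 with 1 array left out. The median of RBBP4 complexes was -0.133 to 0.108, and that of replacement histones was -0.446 to -0.096 with 1 array left out and -0.038 without both. With 1 array left out, the median of H3.3 and CENP-A chaperones was -0.037 to 0.163, and that of S-phase genes -0.317 to -0.002. It was -0.082 to 0.097 for other H2A-H2B, H2A.Z and transcription-linked chaperones, and -0.092 to 0.027 for partners of H3-H4 assembly. No member has a further probe set, so that alternative gave no value. Leaving out genes of chromosomes 8 and 11 was chosen after seeing the data and moved no list median by more than its spread between arrays. Signal over background was not analysed here.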
